A study of Drosophila melanogaster with 8 samples.

Results

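The RNAs of 7 regulators of the Drosophila germline were followed through RNA immunoprecipitation from SL2 cells: osk, nos, bam, bgcn, Phf7, piwi and aub. They were chosen by gene, through their FlyBase identifiers, and all 7 of them were present among the 17559 genes of the deposited tables. SL2 is a cultured male line of Drosophila melanogaster. The transfected cells carried SXL, SSX or GFP with a FLAG-3xHA-tag, and RNA was recovered with the mouse monoclonal antibody M2 against FLAG. The libraries used were 2 from the SXL IP (Sex-lethal), 3 from the SSX IP (Sister-of-Sex-lethal, its paralogue) and 2 from the GFP IP, which served as the background of the procedure. A single input sample from SL2 cells was not analysed here. All 3 IP groups share the cell line, the tag and the antibody, and the labels give neither the level of each tagged protein nor whether the libraries of a group came from separate cultures. The p-values thus reflect library-to-library spread, which can be technical.

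SXL is an RNA-binding protein that recognises U-rich stretches and controls splicing and translation in females. In the female germline, SXL is known to act with Bam and Bgcn to lower Nanos protein as germline stem cells differentiate, and to keep the male chromatin reader Phf7 low. The other genes followed here work upstream or beside this step: osk assembles the germ plasm in the oocyte, and piwi and aub encode Argonaute proteins that carry piRNAs. SL2 cells are not germ cells and do not make SXL of their own.

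Each gene lies at a known place in the genome. On chromosome arm 3R lie osk (FBgn0003015, 8935126 to 8938395), nos (FBgn0002962, listed as nanos, 19157238 to 19160202) and bam (FBgn0000158, 25243039 to 25245109). The gene bgcn (FBgn0004581) is on 2R at 23853270 to 23858921, and Phf7 (FBgn0031091) is X-linked at 20160355 to 20165830. The genes piwi (FBgn0004872, 10982205 to 10987420) and aub (FBgn0000146, 10997819 to 11001476) are neighbours on 2L with 10398 bp between them. The positions of osk and Phf7 are those of the deposited lists (BDGP6). The others are from RefSeq's Release 6 table, in which 787 of 799 listed genes matched by symbol had the same start and end as in the deposited lists. The deposited files name osk and Phf7, and the names of the other 5 come from the identifiers by which they were chosen.

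Depth was very uneven between groups. Over the 956 genes that the authors listed as enriched, the SXL libraries held 3266209 and 3604413 reads and the SSX libraries 3383720 to 4429899, against 20859 and 27467 in the GFP libraries. Those genes were selected as enriched, so their reads mix depth with enrichment. The size factor, by which the authors divided the counts of a library, averaged 3.46 for SXL, 1.99 for SSX and 0.105 for GFP. A gene with the same number of reads in each library would therefore have a log2 fold change of -5.05 for SXL over GFP and -4.25 for SSX over GFP. Counts per library were at hand for listed genes only, and among the 7 these are osk and Phf7, both in the list for SSX and neither in that for SXL.

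The 7 transcripts differed in their normalized counts. With the authors' size factors, the normalized counts of osk, Phf7 and piwi were higher with SSX than with GFP and higher with SSX than with SXL. Those of nos, bam and bgcn were far lower with both proteins than with GFP, and aub passed no test. Against GFP, 3 of the 7 rose and 3 fell with SSX in the authors' deposited table at an adjusted p of 0.05, where 26.2% of the 9034 genes tested rose and 19.3% fell. With SXL, of the 6 that had an adjusted p in the authors' deposited table, 0 rose and 3 fell, where 16.4% of the 7170 genes tested rose and 13% fell. The 7 had, in the authors' deposited tables, a median log2 fold change of 1.11 for SXL, beside 0.09 over all genes tested, and of 1.44 for SSX, beside 0.44. The median for SXL is the value of piwi (adjusted p = 0.399) and that for SSX the value of aub (adjusted p = 0.291), neither of them called. These medians show no shift of the 7 as a set, since nos, bam and bgcn fell and the others had positive values. Both comparisons use the same 2 GFP libraries, so they are not independent of each other.

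**Figure D1:**
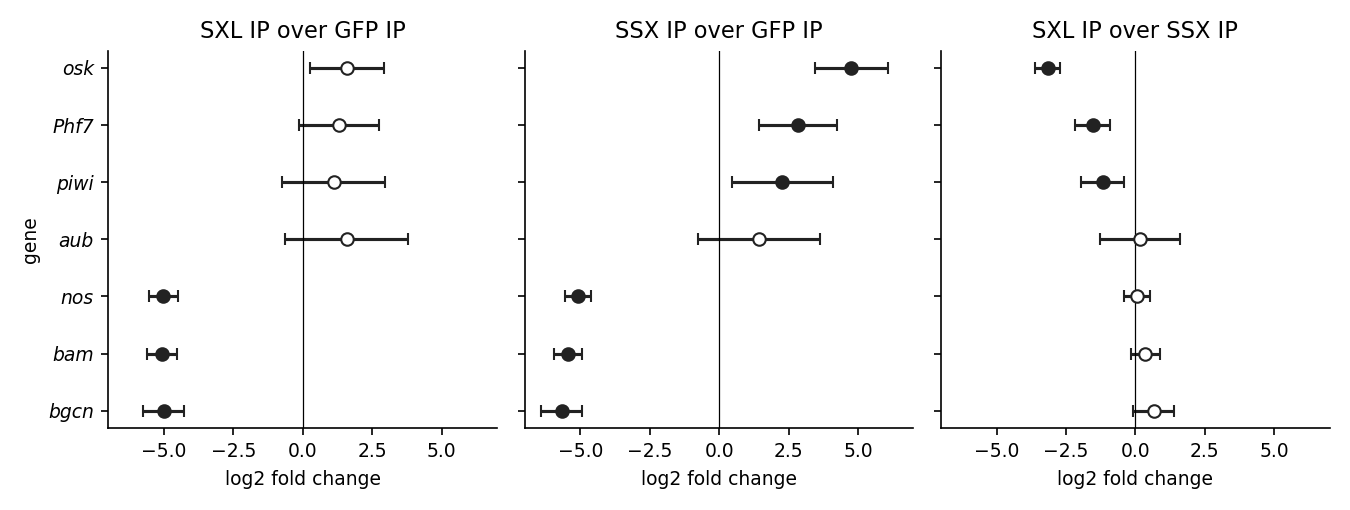
Log2 fold change (x axis) of the 7 transcripts (y axis) in the authors' 3 deposited tables, with bars of 1.96 standard errors, filled where the adjusted p was under 0.05 and open elsewhere. The transcripts of nos, bam and bgcn lie near -5 against GFP in both panels, while osk, Phf7 and piwi lie above 0 with SSX.

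The transcript of osk had the highest fold change of the 7 with SSX. Oskar protein nucleates the pole plasm, which specifies germ cells at the posterior of the egg, and osk mRNA is held silent until it reaches that pole. Normalized counts of osk reached 50.7 and 66.8 in SXL libraries, 550, 575 and 468 in SSX libraries, and 0 and 24.9 in GFP libraries. All 3 SSX libraries lay above both SXL libraries, and both SXL libraries above both GFP libraries, with no overlap between any pair of groups. Counts of osk were at hand because it was listed for high SSX over GFP, so this order was partly set by that selection. The share of other listed genes with the same order was not counted, so the order is not read as particular to osk. The means were 58.8 ± 11.3 with SXL (SD, n = 2), 531 ± 55.9 with SSX (SD, n = 3) and 12.5 ± 17.6 with GFP (SD, n = 2).

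In reads, osk had 409 over the SXL libraries, 3173 over the SSX libraries and 3 over the GFP libraries. The 3 GFP reads, all in a single library, set the precision of any fold against GFP. Taking size factors into account, the ratio of SSX to GFP was 37.1 (exact 95% counting interval 12.7 to 180.02) and that of SXL to GFP was 4.12 (exact 95% counting interval 1.40 to 20.0). These intervals cover counting error only and not the spread between libraries. The log2 fold change of osk with SSX was 4.76 (SE 0.67, adjusted p = 1.4e-11) in the authors' deposited table, which placed it at rank 21 from the top of 9034 genes. With SXL the value was 1.61 (SE 0.68) in the authors' deposited table and did not pass (adjusted p = 0.058). The edgeR quasi-likelihood test on the listed genes gave osk 2.04 for SXL over GFP (adjusted p = 0.0044), a call that was lost without GFP library 2 (1.24, adjusted p = 0.125) and with the libraries scaled to equal totals of listed genes (-0.061). For SSX over GFP the same test gave osk 5.21 (adjusted p = 2.4e-22), 2.43 with TMM scaling over the listed genes (adjusted p = 0.032) and 2.13 with equal totals (adjusted p = 0.055). Both scalings centre genes selected as enriched, so their values are relative to those genes. The gene osk was itself listed for its rise with SSX over GFP. The edgeR values thus show how osk depended on scaling and single libraries, and do not test its enrichment.

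The difference between the proteins in osk recovery is counted without GFP reads and rests on many more reads. Scaled with the size factors, the ratio of SXL to SSX was 0.111 (exact 95% counting interval 0.0998 to 0.123), that is 9.02-fold lower with SXL. In the authors' deposited table the log2 SXL over SSX was -3.15 (SE 0.23, adjusted p = 2.1e-39), and by p-value osk was at rank 5 of 9500 genes. Among the 956 listed genes, whose median in the authors' deposited table was -1.23, osk was at rank 48 from the lowest. Nearly all listed genes had been selected for enrichment with SSX, so a negative value is common among them. In edgeR's quasi-likelihood test on the listed genes, osk had -3.17 (adjusted p = 7.3e-30), and leaving out single libraries gave -3.39 to -2.99. Scaled on the listed genes the difference was smaller and still passed edgeR's test, at -1.95 with TMM (adjusted p = 4.2e-05) and -2.19 with equal totals (adjusted p = 2.7e-05).

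**Figure D2:**
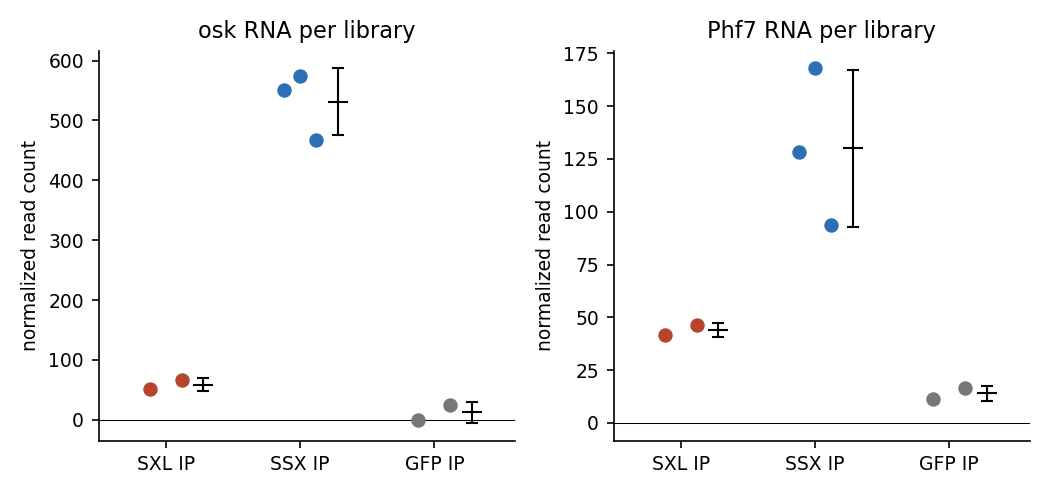
Normalized read count (y axis) of osk and Phf7 in each library of the SXL, SSX and GFP immunoprecipitations (x axis), with the mean and SD to the right of the points. The 3 SSX libraries hold 468 to 575 normalized counts of osk and 93.6 to 168 of Phf7, above every SXL and GFP library. Both genes were listed for high SSX over GFP, which partly set this order.

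Phf7 encodes a chromatin reader with a PHD finger that binds methylated histone H3 and promotes male identity in germ cells. Normalized counts of Phf7 reached 41.7 and 46.2 in SXL libraries, 129, 168 and 93.6 in SSX libraries, and 11.3 and 16.6 in GFP libraries. The groups did not overlap, and the SSX libraries were highest, as for osk. Phf7 too was listed for high SSX over GFP, which partly set this order. The share of other listed genes with it was not counted, so the order is not read as particular to Phf7. Means were 44.0 ± 3.14 with SXL (SD, n = 2), 130 ± 37.1 with SSX (SD, n = 3) and 13.9 ± 3.76 with GFP (SD, n = 2).

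The RNA of Phf7 gave 305 reads over the SXL libraries, 777 over the SSX libraries and 3 over the GFP libraries. Its fold against GFP again rests on those 3 reads, here 1 in a library and 2 in the other. Scaled with the size factors, the ratio of SSX to GFP was 9.09 (exact 95% counting interval 3.10 to 44.2), and that of SXL to GFP was 3.07 (exact 95% counting interval 1.04 to 15.0). In the authors' deposited table Phf7 rose with SSX, by 2.85 (SE 0.72, adjusted p = 0.00031), and had 1.30 with SXL (SE 0.73, adjusted p = 0.174). With SXL, edgeR's quasi-likelihood test on the listed genes gave 1.61 (adjusted p = 0.045) and DESeq2 on the same genes 1.62 (adjusted p = 0.082). Both were adjusted over the listed genes alone, which were selected as enriched, so the edgeR pass is no call over all genes. In the edgeR test Phf7 passed no longer without either SXL library, either GFP library or SSX library 1, with adjusted p-values of up to 0.156. For SSX over GFP edgeR gave Phf7 3.18 (adjusted p = 2.0e-06), and this call was lost when libraries were scaled on the listed genes, at 0.39 with TMM (adjusted p = 0.801) and 0.10 with equal totals (adjusted p = 0.955). Phf7 was listed for its rise with SSX over GFP, so these edgeR values do not test its enrichment.

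Between the proteins, Phf7 was 2.96-fold lower with SXL than with SSX by reads scaled with the size factors (exact 95% counting interval 2.59 to 3.39). The log2 SXL over SSX was -1.54 (SE 0.33, adjusted p = 2.1e-05) in the authors' deposited table. In edgeR's test on the listed genes it was -1.56 (adjusted p = 1.5e-07), and it no longer passed when scaled on those genes, at -0.33 with TMM (adjusted p = 0.392) and -0.58 with equal totals (adjusted p = 0.17). The lower value of Phf7 with SXL thus rests on the authors' size factors. Phf7 was at rank 254 of 956 listed genes from the lowest, so it lay closer to the middle of the listed genes than osk did. Between SXL and SSX, the authors' deposited table had 3 of the 7 transcripts lower with SXL and 0 higher, where 25.9% of 9500 genes tested were lower and 11.5% higher.

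The transcripts of nos, bam and bgcn stood at the other end. Nanos is an RNA-binding translational repressor that preserves germline stem cells, and Bam and Bgcn are partners whose activity starts the differentiation of the stem cell's daughter. With SXL over GFP their log2 fold changes in the authors' deposited table were -5.03 for nos (SE 0.26, adjusted p = 1.4e-78), -5.07 for bam (SE 0.28, adjusted p = 7.2e-69) and -5.01 for bgcn (SE 0.38, adjusted p = 1.3e-36). These values put bam, nos and bgcn at ranks 17, 19 and 21 from the lowest of 7170 genes in the authors' deposited table. Of the genes tested there, 0.293% fell with a log2 fold change under -5, namely 21 genes with nos, bam and bgcn included. That bound lies next to the values of nos, bam and bgcn, so the share is no independent measure of how rare they are.

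With SSX over GFP the same genes had -5.09 for nos (SE 0.24, adjusted p = 1.5e-93), -5.43 for bam (SE 0.26, adjusted p = 2.1e-94) and -5.67 for bgcn (SE 0.38, adjusted p = 6.4e-48) in the authors' deposited table. Their ranks from the lowest of 9034 genes were 27, 8 and 6. With nos, bam and bgcn included, 0.387% of the genes tested fell with a log2 fold change under -5. In linear terms the normalized counts of nos, bam and bgcn were 32.6-fold, 33.6-fold and 32.3-fold lower with SXL, and 34.0-fold, 43.2-fold and 50.9-fold lower with SSX than with GFP, from the values of the authors' deposited tables. The folds with SXL are close to the ratio of the size factors alone, since a gene with equal reads in each library would have a log2 of -5.05.

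**Figure D3:**
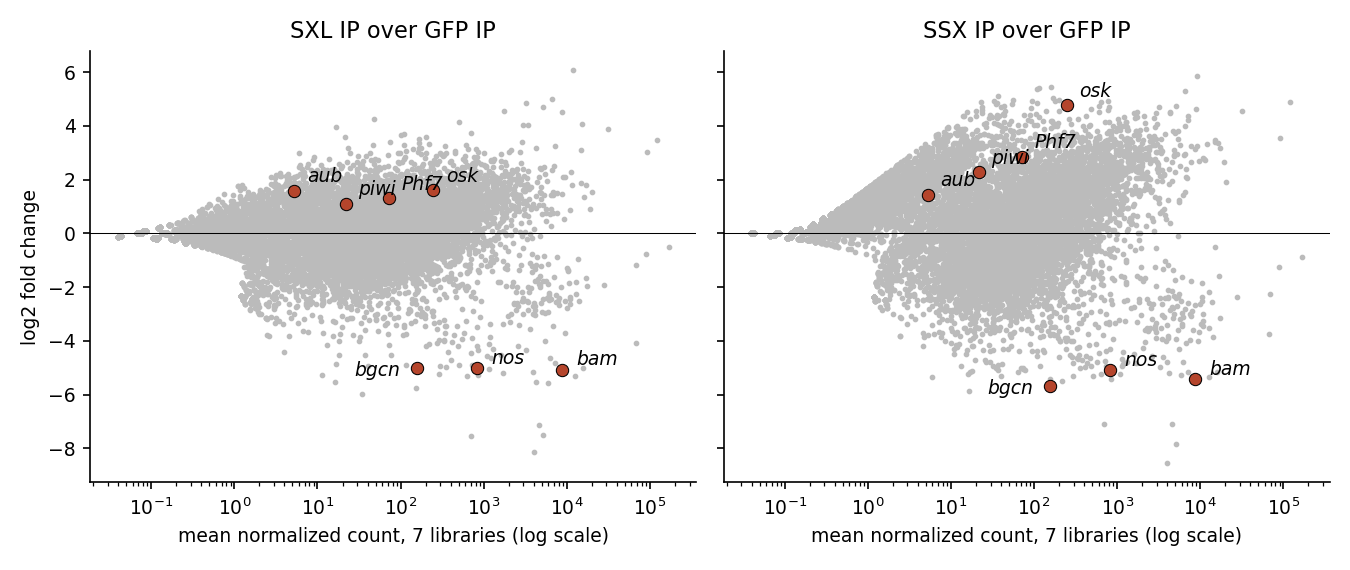
Log2 fold change over GFP (y axis) against the mean normalized count over the 7 libraries (x axis, log scale) for all genes of the authors' deposited tables (grey), with the 7 transcripts marked. The transcripts of bgcn, nos and bam lie along the lower edge of the cloud in both panels, at mean normalized counts of 156, 825 and 8629.

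Between SXL and SSX no difference was detected for nos, bam or bgcn. In the authors' deposited table the log2 SXL over SSX was 0.06 for nos (95% interval -0.42 to 0.54, adjusted p = 0.875), 0.36 for bam (95% interval -0.15 to 0.87, adjusted p = 0.278) and 0.66 for bgcn (95% interval -0.09 to 1.40, adjusted p = 0.169). The intervals leave room for differences of up to these bounds in either direction.

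The group means of nos, bam and bgcn can be worked out from each gene's mean normalized count and its pair of fold changes against GFP. For nos this gave 82.5 with SXL, 79.1 with SSX and 2687 with GFP. For bam it gave 844 with SXL, 657 with SSX and 28373 with GFP, and for bgcn 16.0 with SXL, 10.1 with SSX and 516 with GFP. So the GFP libraries alone carry nearly all of the mean normalized count of these genes. On listed genes with a measured group mean of at least 300, the same calculation returned 1.02 times the measured GFP mean (median of 195 genes) and 1.00 times the SXL and SSX means. Those genes are high with SXL or SSX, so the check was made on genes of the opposite pattern. For osk and Phf7 the fold changes over GFP in the authors' deposited tables were nearer to 0 than DESeq2 gave from the counts with the same size factors, which was 2.04 (SXL) and 5.22 (SSX) for osk and 1.62 (SXL) and 3.18 (SSX) for Phf7. Where the same holds for nos, bam and bgcn, the means worked out for SXL and SSX are too high.

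Multiplied by the mean size factor of each group, these means give the reads per library they imply. The reads per library implied for bam were 2923 with SXL, 1304 with SSX and 2966 with GFP. For nos they were 286 with SXL, 157 with SSX and 281 with GFP, and for bgcn 55.4 with SXL, 20.2 with SSX and 54.0 with GFP. The SXL libraries held at least 119 times as many reads of listed genes as the GFP libraries. Those genes were selected as enriched, so this figure mixes depth with enrichment. The mean size factors were 3.46 for SXL and 0.105 for GFP. In reads, the SXL and GFP libraries still held nearly the same implied number for each of the 3 genes. All 3 lay within 0.1 of the log2 fold change that equal reads per library would give for SXL over GFP (-5.05), and 7 of the 7170 genes tested in the authors' deposited table lay there, these 3 included. With SSX they lay below the value for equal reads (-4.25), by 0.84 for nos, 1.18 for bam and 1.42 for bgcn. The part of the small GFP size factors in these fold changes was not tested, nor was a background of the same number of reads in every library, so the values are differences in normalized counts and may not be differences in recovery.

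**Figure D4:**
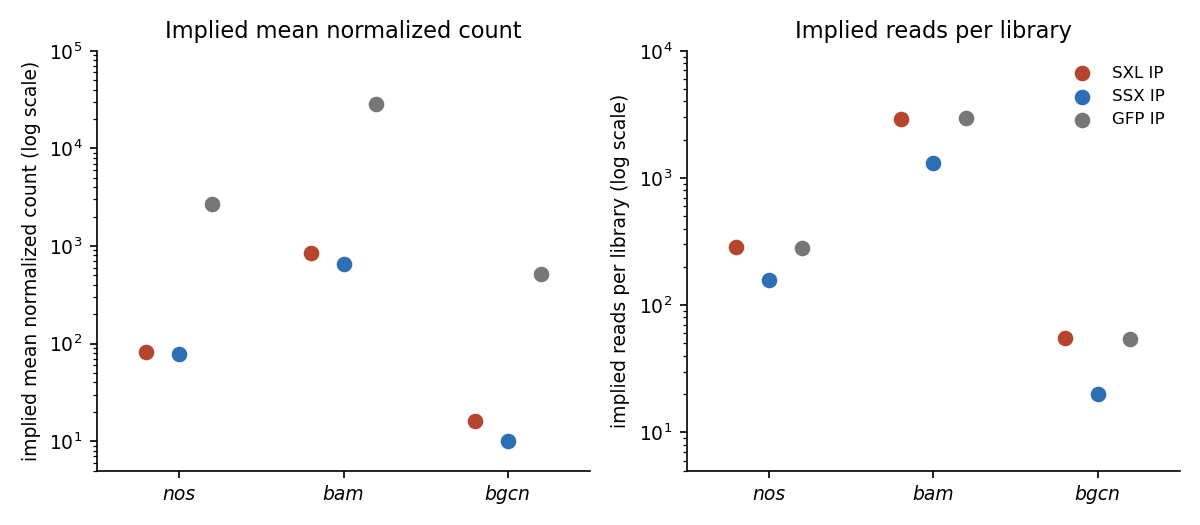
Group means of nos, bam and bgcn implied by the authors' deposited values (points; y axes on log scales), as normalized counts on the left and as reads per library on the right, for the SXL, SSX and GFP immunoprecipitations. On the left the GFP value is far above the others, with 2687 for nos, and on the right the SXL and GFP values nearly coincide, with 286 and 281 for nos.

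The Argonaute genes piwi and aub were sparsely covered. Piwi silences transposons in the nucleus of gonadal cells, and Aub cleaves transposon transcripts in the cytoplasm of germ cells. The mean normalized count over the 7 libraries was 21.7 for piwi and 5.25 for aub. In the authors' deposited table piwi rose with SSX, by 2.28 (SE 0.93, adjusted p = 0.033), and had 1.11 with SXL (SE 0.94, adjusted p = 0.399). Its log2 SXL over SSX in the authors' deposited table was -1.18 (SE 0.40, adjusted p = 0.011). The call of piwi with SSX is lost when fold changes are centred on the median of all tested genes (adjusted p = 0.090). The piwi fold change with SSX passed the fold that the authors' list asks for, a log2 above 2, and missed its adjusted p of under 0.001.

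The authors' deposited tables gave aub a log2 fold change of 1.59 for SXL over GFP (SE 1.13), where it was given no adjusted p. For SSX over GFP the authors' deposited table gave aub 1.44 (SE 1.12, adjusted p = 0.291), and for SXL over SSX 0.15 (95% interval -1.29 to 1.59, adjusted p = 0.898). Worked out as for nos, the reads per GFP library were 0.76 for piwi and 0.24 for aub. At such low counts the calculation is less exact, and over all 911 listed genes with GFP reads the 95th percentile of the implied over the measured GFP mean was 1.47. For osk it gave a GFP mean of 19.4, where 12.5 was measured. Changes against GFP of the size seen for Phf7 could not be measured well for aub at this depth.

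Genes that control the 7 regulators, or work with them, were looked up in lists for germ plasm, nos control, bam and bgcn partners, germline sex and the piRNA pathway. Names could be attached to 17 such genes, of which 16 came from the authors' lists of enriched genes. These lists were selected for enrichment over GFP with SXL or SSX, so the direction of the 16 is not independent evidence. Nothing is read from the counts of named genes that rose, and members of the lists without a name were not analysed here. No gene of the piRNA list beside piwi and aub had a name.

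Of the controllers of nos mRNA, 4 of the 8 sought were named, and all 4 rose with both proteins in the authors' deposited tables, where the list had a median of 2.20 for SXL and of 2.63 for SSX. Over all genes tested 16.4% rose with SXL (median 0.09) and 26.2% with SSX (median 0.44), but all 4 had their names from the lists of enriched genes. They are smg, which represses nos translation in the early embryo, twin, a deadenylase that shortens poly(A) tails, and pum and brat, which act with Nanos on target mRNAs. The gene brat led this list in the authors' deposited tables, at a log2 fold change of 3.17 for SXL (adjusted p = 3.4e-32) and of 4.47 for SSX (adjusted p = 4.5e-71). Its normalized counts averaged 3104 ± 288 with SXL (SD, n = 2), 7699 ± 967 with SSX (SD, n = 3) and 334 ± 9.27 with GFP (SD, n = 2). For smg the authors' deposited tables gave log2 values of 2.26 (SXL) and 2.88 (SSX), for pum of 1.18 (SXL) and 2.37 (SSX), and for twin of 2.14 (SXL) and 2.36 (SSX).

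Of the 23 symbols sought for osk mRNA control and the germ plasm, 5 were named, all through the lists of enriched genes, and all 5 rose with both proteins in the authors' deposited tables, beside 16.4% (SXL) and 26.2% (SSX) of all genes tested. The transport protein stau, which brings osk mRNA to the posterior pole, had log2 fold changes of 1.89 (SXL) and 2.26 (SSX) in the authors' deposited tables. The gene Imp, for another RNA-binding protein, had 2.19 (SXL) and 3.49 (SSX) in the authors' deposited tables. The hnRNPs sqd and Hrb27C, which bind osk mRNA, had 2.08 and 1.88 for SXL, and 2.70 and 3.47 for SSX. The cyclin gene CycB, a known target of Nanos in pole cells, had 1.75 for SXL and 2.56 for SSX, from the authors' deposited tables. By the authors' deposited table, 4 of these 5 were lower with SXL than with SSX and 0 higher, and stau did not pass (-0.36, adjusted p = 0.12). Of all genes tested 25.9% were lower and 11.5% higher, and the listed genes, from which these 5 came, had a median of -1.23. The SXL over SSX value of osk, -3.15, was below that of each of the 5 named genes, which ran down to -1.59 for Hrb27C.

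Of 14 symbols sought as partners and targets of bam and bgcn, 6 were named, all through the lists of enriched genes. Of these, 5 rose with SXL and 6 with SSX according to the authors' deposited tables, beside 16.4% (SXL) and 26.2% (SSX) of all genes tested. Among them mei-P26, which works with Bam and Bgcn in germ cells, had log2 fold changes of 1.91 (SXL) and 3.02 (SSX) in the authors' deposited tables. Receptors of the Dpp signal, which represses bam in stem cells, were put (2.20 with SXL, 3.43 with SSX) and tkv (1.14 with SXL, adjusted p = 0.071, and 2.22 with SSX), from the same tables. Sxl, which is among those that rose, is the bait of the SXL IP, and its reads can come from the construct. Of 12 symbols sought with Phf7, 3 were named: stwl, a gene for stem cell maintenance (1.60 with SXL, 3.34 with SSX), and Stat92E (1.42 with SXL, 2.40 with SSX) rose with both proteins in the authors' deposited tables. The third, FBgn0003607, encodes the heterochromatin protein HP1 and is in neither list of enriched genes. The authors' deposited tables gave it 0.37 for SXL (adjusted p = 0.34) and 0.17 for SSX (adjusted p = 0.62).

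**Figure D5:**
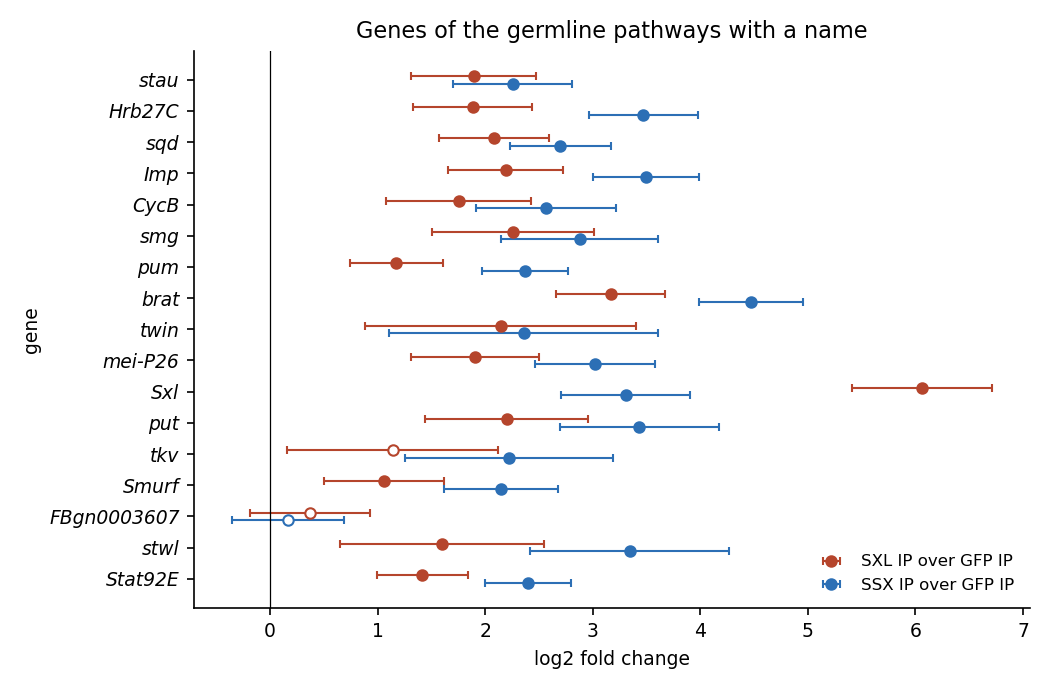
Log2 fold change over GFP (x axis) of the 17 named genes of the germline lists (y axis) for each protein, from the authors' deposited tables, with bars of 1.96 standard errors, open where the adjusted p was not under 0.05. Of the 17 genes, 16 came from lists of enriched genes and lie right of 0, and the HP1 gene FBgn0003607 lies near 0.

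The listed genes most like osk and Phf7 were found by the root mean square difference of centred log2(normalized count + 1) over the 7 libraries. For osk these were CG2258 (0.47), CG4631 (0.60) and the noncoding CR44619 (0.61), beside a median of 2.07 over the listed genes. Like osk, they had few GFP reads, namely 4, 1 and 1, and log2 SXL over SSX values of -2.36, -3.30 and -3.00 in the authors' deposited table. For Phf7 the nearest were Hmu (0.11), CG34220 (0.17) and mus101 (0.18), beside a median of 0.52. Hmu had 39 GFP reads, and in the authors' deposited tables its log2 fold changes were 1.32 (SXL) and 2.90 (SSX), beside 1.30 (SXL) and 2.85 (SSX) for Phf7.

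Cell type was checked with a short marker list. The hemocyte factor srp, from the lineage to which SL2 cells are related, had a mean normalized count of 955 in the GFP libraries, and 1 of the 8 hemocyte markers sought had a name. In the same libraries the somatic gonad marker zfh1 had 2750.0 and Sxl, sought as a female marker, 468. The neuronal marker elav had 132 and msl-2, of male dosage compensation, 131. All of these come from the lists of enriched genes, and the hemocyte marker was not the highest, so these values do not set the hemocyte class apart. Counts per gene do not separate the spliced forms of Sxl or allow for gene length. The values of Sxl and msl-2 thus do not decide the sex of the cells. Of 8 germ cell markers, 5 were identifiable, all of them among the 7 genes described, so the germ cell lineage was not checked by independent markers.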

How the data were processed

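RNA recovered with tagged SXL, SSX or GFP was sequenced in paired ends from stranded libraries depleted of ribosomal RNA, per the labels' protocols. Trimmomatic, TopHat2, featureCounts, DESeq, DESeq2 and BDGP6 are named per the submitters' processing notes, with no versions; the strand setting of the counting is not given in the sources used here, so reads of genes that overlap, antisense ones included, may be shared. Each of 3 full tables deposited by the authors gives per gene the mean normalized signal, the log2 fold change with its SE, the test score, and the p-value before and after adjustment. The authors also deposited the read counts of each library for 199 genes in an SXL list and 947 in an SSX list, which are the genes with a log2 above 2 and an adjusted p below 0.001; 14 further columns per library were not used.

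The full tables gave the main results at an adjusted p of 0.05. Size factors were solved by least squares from counts and mean normalized counts; normalized counts are counts divided by them. Group means of unlisted genes were solved from the mean normalized count and the 2 fold changes. Counts of 956 listed genes, selected on the outcome, entered edgeR 4.0.16 (R 4.3.3) with these size factors and DESeq2 1.42.0 as checks, and the edgeR step was tested on simulated data. Python 3.11.15, pandas 2.3.3, numpy 2.4.6, scipy 1.17.1 and matplotlib 3.10.9 were used. SXL and GFP columns carry other numbers than the titles, so each column counts as 1 library of its group. Names came from the lists (956) and from RefSeq synonyms (208). The genes and lists were chosen with earlier results of these data known. All 7 genes, up to 4 genes of lowest adjusted p per list, and the 3 nearest profiles per listed gene were named; others of the pathway lists are named in addition. Alternatives covered thresholds, adjustment, centring, scaling, test, single libraries and a replicate block.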

Additional observations from a re-analysis of the deposited data

Results flagged for a closer look

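The fold changes of 3 of the 7 transcripts over GFP differed between the proteins by the direct test of SXL against SSX in the authors' deposited table. All 3 were lower with SXL, where 25.9% of the 9500 genes tested were lower and 11.5% higher. The log2 SXL over SSX was -3.15 for osk (adjusted p = 2.1e-39), -1.54 for Phf7 (adjusted p = 2.1e-05) and -1.18 for piwi (adjusted p = 0.011). Normalized counts of osk and Phf7 were lower in both SXL libraries than in all 3 SSX libraries. Both are listed genes, and the median log2 SXL over SSX of the listed genes was -1.23, so this order is not read as particular to them. In the edgeR test scaled on the listed genes, Phf7 no longer passed, at -0.33 with TMM and -0.58 with equal totals, while osk passed at -1.95 and -2.19. Counts of piwi per library were not used here.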

How the results depend on the processing

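The counts of called transcripts stayed within 1.5 times of their value under all 9 alternatives, but some changed. At a threshold of 0.01 they fell from 6 to 5 for SSX over GFP and from 3 to 2 for SXL over SSX. The other alternatives left them as they were. A minimum mean normalized count of 10 could drop only aub (5.25), which was called in no comparison. Of 63 alternatives for deposited fold changes, 60 kept direction and call and 3 lost the call, all of piwi: SSX over GFP at 2.28 with a threshold of 0.01 (adjusted p = 0.033) and at 1.85 with centring (adjusted p = 0.090), and SXL over SSX at -1.18 with a threshold of 0.01. The other edgeR alternatives changed 11 of 30 values. With TMM over listed genes, osk had 0.48 for SXL over GFP without a call, and 2.43 for SSX over GFP and -1.95 for SXL over SSX with a call, and Phf7 had 0.059 for SXL over GFP, 0.39 for SSX over GFP and -0.33 for SXL over SSX, without a call. With equal totals osk had -0.061 and Phf7 -0.48 for SXL over GFP, both with the opposite sign, osk 2.13 (adjusted p = 0.055) and Phf7 0.10 for SSX over GFP, and Phf7 -0.58 for SXL over SSX, while osk kept its call for SXL over SSX at -2.19. These scalings centre genes selected as enriched, so their values are relative to those genes. For Phf7, SXL over GFP was 1.62 with DESeq2 (adjusted p = 0.082) and 1.61 with the replicate block (adjusted p = 0.074), no longer called; the block changed no other call. Same-numbered libraries had correlations of deviations from -0.03 to 0.20, the highest for SXL and SSX library 3. With 2 SXL and 2 GFP libraries, the value for SXL with GFP is the same for both numbers. The check thus cannot decide whether the numbers pair libraries, and the main edgeR fit did not pair them.

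Leaving out single libraries, edgeR's SXL over GFP ranged from 1.24 to 9.99 for osk and from 1.40 to 1.96 for Phf7. For SSX over GFP it ranged from 4.41 to 13.2 for osk and from 2.95 to 3.52 for Phf7, and for SXL over SSX from -3.39 to -2.99 for osk and from -1.75 to -1.34 for Phf7. The values of 9.99 and 13.2 arose without GFP library 3, which leaves the GFP library with 0 osk reads, and are no bound. Without GFP library 2, osk lost its SXL over GFP call (1.24, adjusted p = 0.125). Phf7 lost that call without either SXL library (1.68 and 1.54), without SSX library 1 (1.61) and without either GFP library (1.40 and 1.96). The filter on low counts left every edgeR value and adjusted p of both genes as it was, so it was no separate check. Single libraries could not be left out for genes without counts per library. Few GFP reads limit the folds of osk, Phf7, piwi and aub against GFP. For nos, bam and bgcn the implied reads per GFP library were 281, 2966 and 54.0, and their folds depend on the small GFP size factors.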
